A study of Homo sapiens with 3 samples.

Results

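The spliceosome genes described here are 125 of the 15625 genes in the deposited expression table of HCT116 cells, a human colorectal cancer line. The rule uses the table's annotation and no measured value, though it was set with earlier results of these data known. A gene was kept if its pathway names in the table held the KEGG entry Spliceosome and not the entry Ribosome biogenesis in eukaryotes, and if its symbol did not begin with HSPA. The entry itself was carried by 132 genes, and these exclusions took out 7 of them. The knockdown group has 2 libraries, sh_circRAPGEF5_1 and sh_circRAPGEF5_2, from cells given shRNA that targets circRAPGEF5, a circular RNA whose host gene is RAPGEF5. The control group has 1 library, sh_control, from cells given a control shRNA. All 3 libraries share the cell line, the transfection with an shRNA system and the genotype label MT, which the labels do not explain. Cells were collected at 36 or 48 h, with no time tied to a library. Whether the 2 knockdown libraries come from different hairpins or from different cultures is not stated. RNA was measured by sequencing of a stranded mRNA library, and the values are FPKM, fragments scaled to gene length and to the mapped fragments of the library.

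The spliceosome removes introns from the first copy of a gene and joins the exons. It is built anew on each intron from small nuclear ribonucleoproteins (snRNPs), particles that each hold a small nuclear RNA, a ring of Sm or LSm proteins and proteins of their own. The U1 particle marks the start of the intron, the U2 particle the branch site near its end, and the tri-snRNP of the U4, U6 and U5 particles brings in the parts that form the catalytic centre. RNA helicases and the PRP19 complex drive the rearrangements that follow, while SR proteins and hnRNPs bind the transcript and steer the choice of splice site. The deposited table holds the protein genes of this machine, and not its small nuclear RNAs.

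Depth was similar in the 3 libraries. The smallest whole reads that give the listed FPKM ratios summed to 14832142 and 15758794 in the knockdown libraries and 14632390 in the control. For the spliceosome genes tested, these reads ranged from 43 to 31727 per gene and library. The host gene RAPGEF5 was listed at 1.33 and 2.73 FPKM in the knockdown libraries and 1.98 FPKM in the control. This row counts the linear gene, so the knockdown of the circle itself is not checked by it. Of 8 epithelial markers, 6 were at 1 FPKM or more, the keratin KRT8 highest, while VIL1 was at or near 0. Of 10 markers of leukocytes, fibroblasts and endothelium, 5 were in the table and none reached 1 FPKM in any library, the highest value being 0.683 FPKM.

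As a group the spliceosome genes lay slightly above the control in the values as deposited, and no single gene passed the test. Fold changes here are differences of log2(FPKM + 1) from the control, and a gene was tested if its 3 libraries averaged 1 FPKM or more. This left 124 of the 125 genes. RBMXL2, a germ cell relative of RBMX, stayed below, at 0.197 and 0.0796 FPKM in the knockdown libraries and 0.057 FPKM in the control. The median log2 fold change of the 124 genes was 0.14, with 0.06 in knockdown library 1 and 0.21 in knockdown library 2, against a median of -0.05 over all 11216 genes tested. The middle of the distribution ran from -0.13 to 0.42 between quartiles for the spliceosome genes and from -0.38 to 0.28 for all genes tested. Above the control in both knockdown libraries were 61 genes (49.2%, against 31.7% of all genes tested). Below it in both were 26 genes (21%, against 37.6%), and 37 lay on opposite sides (29.8%, against 30.7%). With quantile normalization the median was 0.03, against 0.01 over all genes tested, and that of knockdown library 1 turned to -0.08, with 0.11 in library 2. There 48 genes were above in both libraries (38.7%, against 36.0%) and 42 below (33.9%, against 33.6%). The median over all genes depends on the filter, at 0.02 among genes with a mean of at least 5 FPKM, where 37.1% were above and 32.8% below in both. Median mean levels were 43.8 FPKM for the spliceosome genes and 10.6 FPKM for all genes tested. Counts by role and in lists outside the entry have no test of the list. They stand beside the same shares over all genes, 31.7% above and 37.6% below in both. With quantile normalization those shares were 36.0% and 33.6%.

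**Figure D1:**
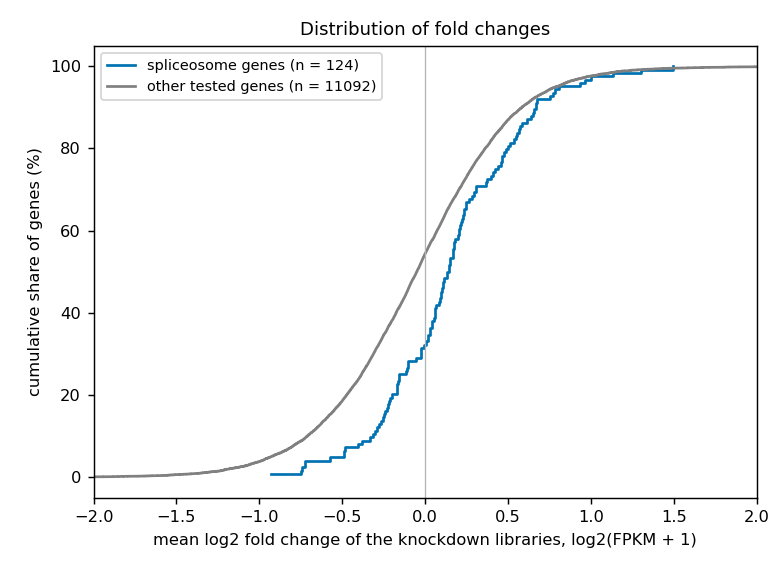
Cumulative share of genes (vertical axis, percent) by mean log2 fold change of the 2 knockdown libraries against the control (horizontal axis), for 124 spliceosome genes and 11092 other tested genes. The blue curve of the spliceosome genes lies to the right of the grey one over most of the range, with medians of 0.14 and -0.05.

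The test was limma on log2(FPKM + 1) with Benjamini-Hochberg adjustment over the 11216 genes. It called 0 of the 124 spliceosome genes higher and 0 lower at an adjusted p of 0.05, where 0.0178% of all genes were called higher and 0% lower. The smallest adjusted p of a spliceosome gene was 0.547. At an unadjusted p under 0.05 there were 6 genes higher (4.84% of 124, against 3.08% of all genes tested) and 0 lower (against 3.99%). At least 1.5-fold from the control in both libraries were 10 genes higher (8.06%, against 5.52%) and 3 lower (2.42%, against 7.4%). At least 2-fold were 1 gene higher, SNRNP27 (0.806%, against 1.21%), and 0 lower (against 1.7%). The 6 genes at the unadjusted threshold and the 10 higher ones include U2AF1L5, and the 3 lower ones include U2AF1. These rows have identical coding sequences, and how reads were shared between them is uncertain, as described below. With 1 control library the design has 1 residual degree of freedom, and the smallest p that an exact permutation of the 3 libraries allows is 0.333. Separate cultures are not stated, so the p-values reflect the spread among these libraries alone, which may be technical. In bulk RNA fewer cells of a kind and less RNA per cell cannot be told apart.

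**Figure D2:**
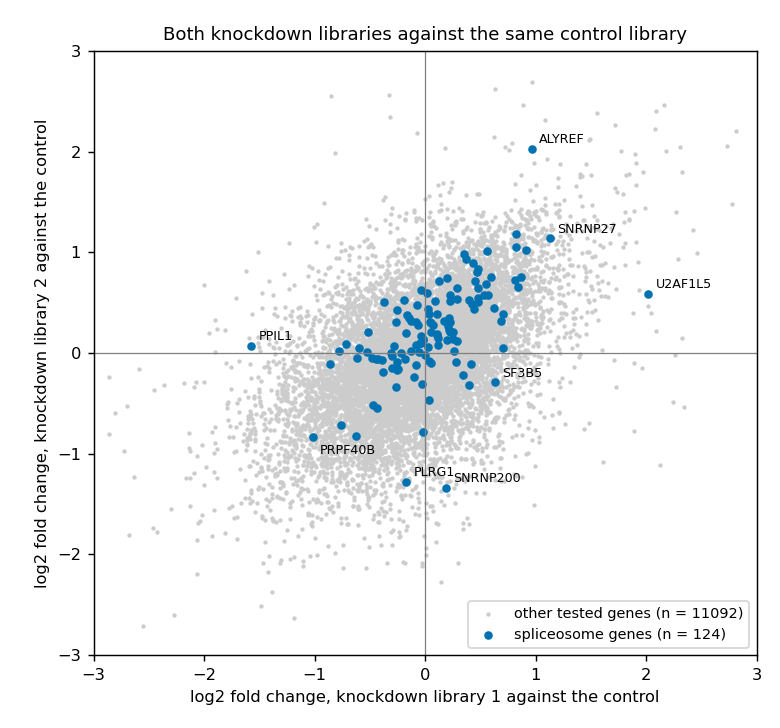
Log2 fold change against the control in knockdown library 1 (horizontal axis) and knockdown library 2 (vertical axis), with spliceosome genes in blue and other tested genes in grey; 6 genes, none of them a spliceosome gene, lie outside the axes. Both axes share the same control library, which by itself places points along the rising diagonal. ALYREF, SNRNP27 and U2AF1L5 lie at the upper right, while PPIL1 is low in library 1 and SNRNP200 and PLRG1 are low in library 2.

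The 250 bases before the annotated start of 4 of the 6 genes with the smallest unadjusted p are shown to let the letters be read beside the values that follow. The sequences are from RefSeq on GRCh38.p14, each read 5′ to 3′ on the gene's own strand. Capitals mark CCGGAAG, the core of sites bound by ETS transcription factors, or its reverse complement CTTCCGG.
ALYREF, chr17:81891588-81891837, minus strand: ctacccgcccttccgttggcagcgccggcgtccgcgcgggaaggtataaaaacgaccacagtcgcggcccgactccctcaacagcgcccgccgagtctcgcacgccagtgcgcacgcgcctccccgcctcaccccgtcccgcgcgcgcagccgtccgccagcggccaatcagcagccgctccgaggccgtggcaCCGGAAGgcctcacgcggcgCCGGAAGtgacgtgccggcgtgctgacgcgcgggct
SF3B6, chr2:24076327-24076576, minus strand: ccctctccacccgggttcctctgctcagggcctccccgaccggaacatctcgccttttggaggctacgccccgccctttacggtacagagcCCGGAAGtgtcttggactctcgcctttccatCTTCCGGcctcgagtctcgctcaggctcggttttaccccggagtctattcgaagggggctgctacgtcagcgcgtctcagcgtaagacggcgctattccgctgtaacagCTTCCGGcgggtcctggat
SNRNP27, chr2:69893706-69893955, plus strand: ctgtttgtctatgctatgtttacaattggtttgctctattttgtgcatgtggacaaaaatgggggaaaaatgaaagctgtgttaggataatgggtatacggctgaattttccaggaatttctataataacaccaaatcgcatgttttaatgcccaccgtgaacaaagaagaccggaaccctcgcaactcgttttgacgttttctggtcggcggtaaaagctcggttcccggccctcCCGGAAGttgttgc
PRPF4, chr9:113275408-113275657, plus strand: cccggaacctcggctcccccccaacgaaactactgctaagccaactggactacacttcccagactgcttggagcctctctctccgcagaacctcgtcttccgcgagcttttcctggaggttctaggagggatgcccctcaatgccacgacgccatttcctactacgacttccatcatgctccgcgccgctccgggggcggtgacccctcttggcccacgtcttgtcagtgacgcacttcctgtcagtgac

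ALYREF had 2 matches to these letters, SF3B6 had 3, SNRNP27 had 1 and PRPF4 had none, with other forms of ETS site left aside. Over windows of 300 bases, from 250 before to 50 after the start, RefSeq gave a sequence for 109 of the 125 genes. CCGGAAG on either strand stood in 48 of them (44.0%), against 20.8% of 9237 promoters of tested genes and 10.7% of all 27305 promoters in the RefSeq set. Of the 64 matches in the 109 windows, 41 began within the 100 bases before the start. The median log2 fold change was 0.13 over the 48 genes with it and 0.12 over 60 tested genes without it. It stood in 6 of 11 promoters among the 12 highest genes and in 6 of 11 among the 12 lowest. The E-box CACGTG was in 8.26% of the members' promoters and 10.5% of those of tested genes, and CCAAT on either strand in 39.4% and 37.2%. The YY1 motif AAGATGGC was in 10.1% of the members' promoters and 5.85% of those of tested genes, the NRF1 core GCATGCG in 9.17% and 6.71%, and TATAAA in 7.34% and 5.11%. All motifs were searched on both strands. These are matches of letters in a window and no measure of binding.

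Genes that join spliced RNA to its export included the spliceosome gene with the largest mean log2 fold change. ALYREF (Entrez 10189, GRCh38 chromosome 17, 81887844 to 81891586), the adaptor that hands spliced mRNA to the export receptor, had 127 and 265 FPKM in the knockdown libraries and 64.2 FPKM in the control. That is 1.97 and 4.13 times the control, and library 2 stood well above library 1. The mean log2 fold change was 1.5 ± 0.47 (SE), with a limma adjusted p of 0.547. EIF4A3, the helicase at the heart of the exon junction complex, had 104 and 161 FPKM in the knockdown libraries and 80.9 FPKM in the control. Its partner MAGOH had 89.8 and 92.6 FPKM in the knockdown libraries, against 61.6 FPKM in the control. The near-copy MAGOHB, whose coding sequence is 85.8% identical, had 7.35 and 9.80 FPKM against 10.2 FPKM, so the 2 copies lay on different sides of the control. NCBP1, the large cap-binding subunit, had 31.5 and 24.1 FPKM against 19.2 FPKM in the control. The export helicase DDX39B, most abundant of these 12 genes, was lower in both libraries, at 176 and 219.9 FPKM, against 230.5 FPKM in the control. The THO complex gene THOC3 had 15 and 16.8 FPKM against 18.7 FPKM. Of the 12 genes, 5 were above the control in both libraries and 3 below. The median log2 fold change was 0.10, and 0.05 with quantile normalization, where library 1 turned to -0.06 and 4 genes were above and 4 below.

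Proteins of the tri-snRNP held 4 of the 12 highest genes. SNRNP27 (Entrez 11017, chromosome 2, 69893560 to 69905575), a small protein of the assembled tri-snRNP, had 30.9 and 31.2 FPKM in the knockdown libraries and 13.6 FPKM in the control. The knockdown libraries lay close together and both above the control, at a log2 fold change of 1.14 ± 0.40 (SE, limma adjusted p 0.592). PRPF4 (Entrez 9128, chromosome 9, 113275343 to 113292905), which binds the paired U4 and U6 RNAs, had 45.3 and 58.3 FPKM against 25.1 FPKM, a log2 fold change of 1.0 ± 0.40 (limma adjusted p 0.628). Its partner PRPF3 had 33.5 and 43.2 FPKM in the knockdown libraries and 27.3 FPKM in the control. Among proteins of the U5 particle, the GTPase EFTUD2 had 41.0 and 56.6 FPKM in the knockdown libraries, against 27.6 FPKM in the control. The small U5 protein TXNL4A had 37.1 and 34.9 FPKM against 20.7 FPKM, and SNRNP40 had 73.1 and 92.6 FPKM against 52.4 FPKM. These 3 were above the control in both libraries, while PRPF6, SNRNP200 and PRPF8 were not. The helicase DDX23 of the same group was also above in both, at 55.8 and 74.4 FPKM against 54.7 FPKM. PRPF6 had 40.2 and 60.1 FPKM in the knockdown libraries and 48.5 FPKM in the control, and the helicase SNRNP200 had 118 and 40.3 FPKM against 103 FPKM. The scaffold PRPF8, which holds the catalytic centre and is the most abundant of the 19 genes, had 109 and 123 FPKM in the knockdown libraries and 131 FPKM in the control. ZMAT2 was lower in both, at 49.3 and 47.9 FPKM against 68.8 FPKM, and so was the prolyl isomerase PPIH, at 8.30 and 14.7 FPKM against 15.9 FPKM. Of the 19 genes, 9 were above and 4 below the control in both libraries. Their median of 0.11 turned to -0.0052 with quantile normalization.

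**Figure D3:**
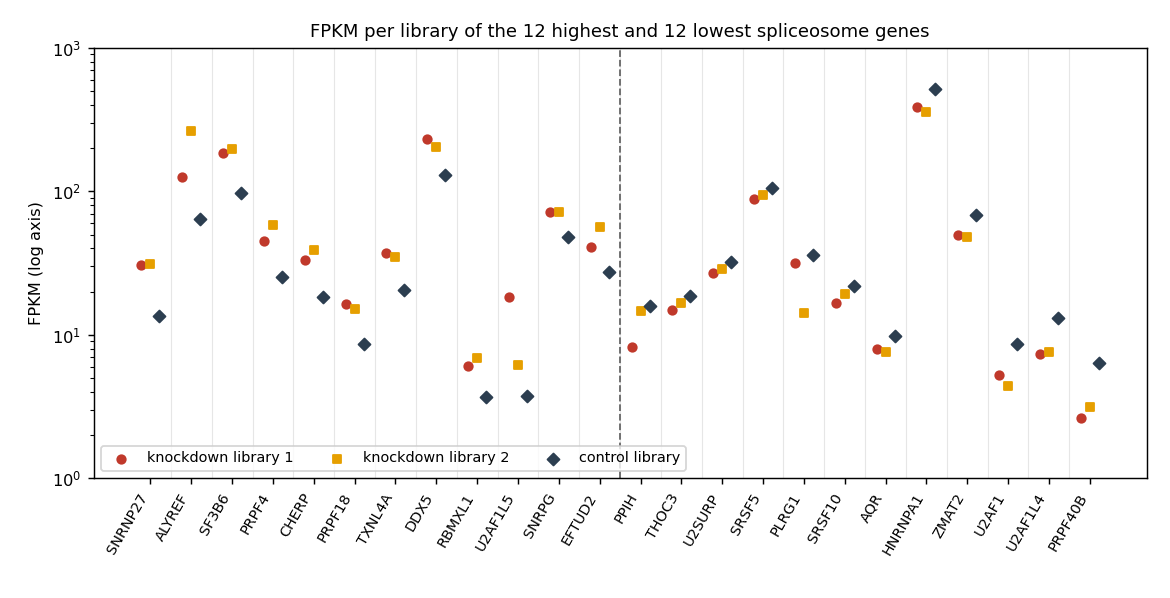
FPKM on a log axis for each library, with knockdown libraries 1 (circles) and 2 (squares) left of the control (diamonds), for the 12 highest and the 12 lowest spliceosome genes, ordered by whichever knockdown library was closer to the control. SNRNP27 had 30.9 and 31.2 FPKM in the knockdown libraries and 13.6 FPKM in the control, while PRPF40B had 2.66 and 3.14 FPKM against 6.40 FPKM.

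The 24 proteins of the U2 particle and the branch site spread widely around the control. SF3B6 (Entrez 51639, chromosome 2, 24067584 to 24076443), the small subunit that touches the branch-point adenosine, had 184 and 198 FPKM in the knockdown libraries and 97.1 FPKM in the control, a log2 fold change of 0.97 ± 0.39 (SE, limma adjusted p 0.641). CHERP (Entrez 10523, chromosome 19, 16517889 to 16542530), a protein that associates with U2, had 33.4 and 39.3 FPKM against 18.4 FPKM, a log2 fold change of 0.94 ± 0.40 (limma adjusted p 0.671). Both knockdown libraries were near 2 times the control for these 2 genes. SNRPB2, which binds U2 RNA, had 37.8 and 48.7 FPKM in the knockdown libraries and 26.8 FPKM in the control. U2AF2, the large subunit of the factor that reads the polypyrimidine tract, had 119 and 134 FPKM in the knockdown libraries, against 85.2 FPKM in the control. The SF3B subunits did not move as one. SF3B3 had 42.7 and 43.4 FPKM in the knockdown libraries and 30.4 FPKM in the control, while the scaffold SF3B1, the subunit most often mutated in blood cancers, had 75.1 and 87.3 FPKM against 87.5 FPKM. SF3A2 was at 98.7 and 91.4 FPKM in the knockdown libraries and 96.6 FPKM in the control, and the helicase DDX46 at 36.0 and 35.6 FPKM against 36.0 FPKM. U2SURP, a partner of CHERP, was lower in both, at 27.1 and 28.9 FPKM against 32.3 FPKM. Of the 24 genes, 12 were above and 6 below the control in both libraries; the median log2 fold change was 0.17 (0.04 with quantile normalization, 9 above and 10 below).

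U2AF1, the small subunit that reads the AG at the intron's end, is listed in the table beside 2 related rows, U2AF1L5 and U2AF1L4. In the GENCODE 29 annotation U2AF1 (chromosome 21, 43092956 to 43107587) and U2AF1L5 (chromosome 21, 6484623 to 6499261) have coding sequences of 720 bases that are 100% identical. Their upstream sequences in RefSeq are identical over all 250 bases, and 299 of 300 bases match when the first 50 transcribed bases are added. The upstream sequence is shown once as an example of how alike the 2 annotated positions are. By the RefSeq start this sequence lies before the transcript, while both GENCODE spans reach into its last bases. With such identity, the values cannot tell whether these are 2 separate genes.
U2AF1, chr21:43107571-43107820, minus strand, GRCh38.p14: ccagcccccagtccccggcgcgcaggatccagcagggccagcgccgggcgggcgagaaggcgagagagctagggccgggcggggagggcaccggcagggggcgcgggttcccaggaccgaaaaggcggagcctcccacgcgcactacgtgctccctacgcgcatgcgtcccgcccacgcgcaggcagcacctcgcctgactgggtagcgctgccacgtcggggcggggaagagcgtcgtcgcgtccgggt

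The U2AF1 row had 5.23 and 4.41 FPKM in the knockdown libraries and 8.61 FPKM in the control. The U2AF1L5 row had 18.3 and 6.13 FPKM in the knockdown libraries and 3.74 FPKM in the control. One row of the identical pair was thus lower in both knockdown libraries, and the other was higher. U2AF1L5 alone would have a log2 fold change of 1.30 ± 0.56 (SE, limma adjusted p 0.671), and U2AF1 alone -0.73 ± 0.43 (limma adjusted p 0.8). Added together, the 2 rows had 23.5 and 10.5 FPKM in the knockdown libraries and 12.3 FPKM in the control, so that the knockdown libraries lay on opposite sides of it. U2AF1 made up 22.3% and 41.9% of this sum in the knockdown libraries and 69.7% in the control. The smallest whole reads behind the U2AF1 row were 48 and 43 in the knockdown libraries and 78 in the control, and those behind U2AF1L5 were 351 and 125 against 71. How the authors' counting shared reads between the 2 rows is not given in the sources used here, and both are uncertain. U2AF1L5 is among the 12 highest spliceosome genes and U2AF1 among the 12 lowest, and both places share this doubt. U2AF1L4, a more distant relative on chromosome 19 with 68.6% identity over the coding sequence, was lower in both, at 7.31 and 7.58 FPKM against 13.1 FPKM.

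**Figure D4:**
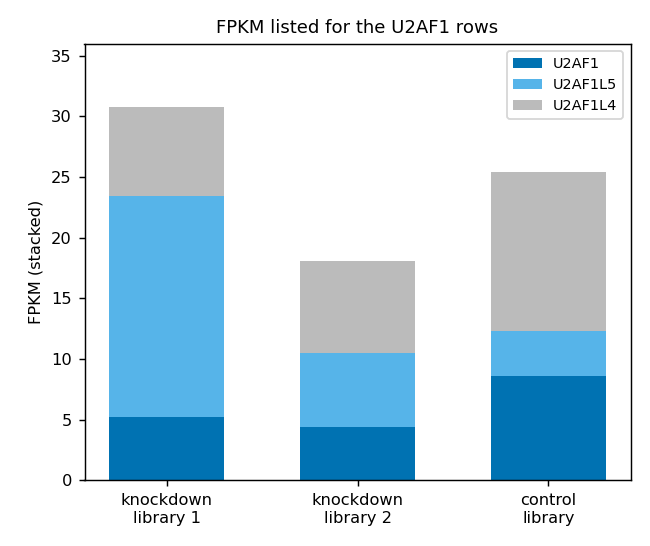
Stacked FPKM of the rows U2AF1, U2AF1L5 and U2AF1L4 in knockdown libraries 1 and 2 and in the control. The dark and light blue parts share 1 coding sequence; together they reach 23.5 and 10.5 FPKM in the knockdown libraries and 12.3 FPKM in the control.

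Among U1 proteins, the gene lowest of all spliceosome genes and 1 of the 12 highest were found side by side. PRPF40B (Entrez 25766, chromosome 12, 49568218 to 49644666), which bridges the ends of the intron, had 2.66 and 3.14 FPKM in the knockdown libraries and 6.40 FPKM in the control. Its log2 fold change was -0.93 ± 0.44 (SE, limma adjusted p 0.715). DDX5, a helicase that also serves as a cofactor of transcription, had 233 and 205 FPKM against 129 FPKM. The core U1 proteins differed from each other. SNRPC had 168 and 135 FPKM in the knockdown libraries and 102 FPKM in the control, SNRNP70 had 155 and 163 FPKM against 144 FPKM, and SNRPA was lower in both, at 62.7 and 82.3 FPKM against 85.7 FPKM. The median of the 9 genes was 0.11, with -0.06 in library 1 and 0.27 in library 2, and it turned to -0.0044 with quantile normalization.

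Of the 14 Sm and LSm genes, 8 were higher in both libraries and 0 lower in both (against 31.7% and 37.6% of all genes tested). Their median log2 fold change was 0.15 (0.13 with quantile normalization, 6 above and 2 below). Sm proteins form 1 ring with 1 copy of each. Their FPKM differed many-fold, but FPKM also depends on the gene length used in the scaling. In knockdown library 1 the smallest whole reads were 3880 for SNRPB and 2132 for SNRPD1, though true reads may be larger. SNRPB had 217 and 326 FPKM in the knockdown libraries and 199 FPKM in the control, and SNRPD2 had 213 and 289.8 FPKM against 233 FPKM. At the low end SNRPD1 had 26.6 and 32.1 FPKM in the knockdown libraries, against 19.1 FPKM in the control. SNRPG was the steadiest of the higher ones, at 72.3 and 72.4 FPKM against 48.3 FPKM, a log2 fold change of 0.57 ± 0.39 (SE, limma adjusted p 0.817). SNRPF had 57.9 and 63.2 FPKM against 43.6 FPKM. On opposite sides of the control were 6 of the 14 genes, SNRPD2 and SNRPE among them. SNRPE had 26.9 and 45.1 FPKM in the knockdown libraries and 39.0 FPKM in the control. Among LSm genes, whose ring holds U6, LSM3 had 13.9 and 19.5 FPKM against 9.99 FPKM. LSM5 had 10.9 and 19.7 FPKM in the knockdown libraries and 19.4 FPKM in the control, low in library 1 only.

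The PRP19 complex and its partners, which reshape the spliceosome for catalysis, had 10 of 17 genes above the control in both libraries and 3 below, and a median log2 fold change of 0.22 (0.12 with quantile normalization). BCAS2 had 41.0 and 60.8 FPKM in the knockdown libraries, against 31.4 FPKM in the control. BUD31 had 27.9 and 29.4 FPKM against 19.8 FPKM. The ligase PRPF19 itself was not among the higher ones, at 85.1 and 70.2 FPKM in the knockdown libraries and 86.9 FPKM in the control. The helicase AQR, which sits on the intron, had 8.01 and 7.55 FPKM against 9.82 FPKM. For the catalytic steps and the release of the product, 5 of 6 genes were above the control in both libraries and 0 below, with a median of 0.33 (0.27 with quantile normalization). PRPF18, which acts at the joining of the exons, had 16.4 and 15.1 FPKM in the knockdown libraries and 8.58 FPKM in the control, a log2 fold change of 0.81 ± 0.41 (SE, limma adjusted p 0.749). The helicase DHX16 had 25.5 and 22.5 FPKM in the knockdown libraries, against 16.3 FPKM in the control. DHX38 had 35.5 and 42.2 FPKM against 28.9 FPKM. CDC40 alone was on opposite sides, at 8.91 and 14.6 FPKM in the knockdown libraries and 14 FPKM in the control.

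The proteins that steer the choice of splice site lay around the control. Of 12 SR and SR-like genes, 3 were above and 4 below it in both libraries; the median log2 fold change was -0.08 (-0.20 with quantile normalization). SRSF9 stood apart from the others, at 171 and 188 FPKM in the knockdown libraries and 117 FPKM in the control, a log2 fold change of 0.61 ± 0.39 (SE, limma adjusted p 0.81). SRSF1, the founding member of the family, had 92.3 and 90.0 FPKM in the knockdown libraries, against 97.9 FPKM in the control. SRSF2 had 169 and 185 FPKM against 192 FPKM, SRSF5 had 88.6 and 94.0 FPKM against 106 FPKM, and SRSF10 had 16.6 and 19.2 FPKM against 22.1 FPKM. For SRSF1, SRSF2, SRSF5 and SRSF10 the log2 differences were smaller than their SE of about 0.4. Among 10 tested hnRNP and RBMX genes the median was 0.01, and -0.13 with quantile normalization. HNRNPA1, the most abundant spliceosome gene, had 384 and 357 FPKM in the knockdown libraries and 519.9 FPKM in the control. At -0.49 ± 0.41 (SE, limma adjusted p 0.859) both libraries were below the control, and its retrocopy HNRNPA1L2 had 8.14 and 4.37 FPKM against 8.27 FPKM. HNRNPA1 has many pseudogene copies, which makes its values uncertain. HNRNPK had 229.8 and 235 FPKM in the knockdown libraries and 226 FPKM in the control, and HNRNPC had 165 and 203 FPKM against 141 FPKM. RBMXL1, 97.1% identical to RBMX in its coding sequence, had 6.07 and 6.89 FPKM against 3.68 FPKM, while RBMX had 84.2 and 88.0 FPKM against 87.6 FPKM.

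**Figure D5:**
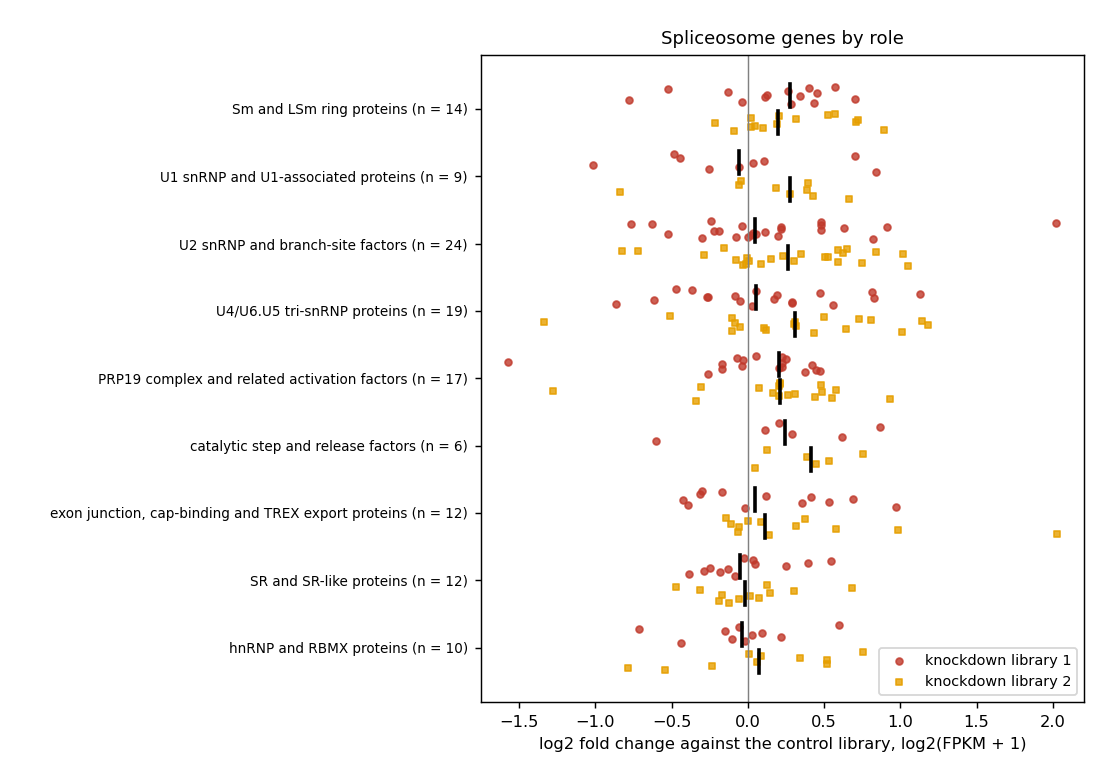
Log2 fold change against the control (horizontal axis) of each tested spliceosome gene by role, with circles for knockdown library 1, squares for knockdown library 2 and black bars for the median per library. In both libraries the medians were 0.25 and 0.42 for catalytic step factors and 0.21 and 0.21 for the PRP19 complex, and -0.05 and -0.02 for SR proteins.

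Between the 2 knockdown libraries the spliceosome genes were mostly higher in library 2. Of the 124 genes, 89 (71.8%) were above library 1 there, against 51.1% of all genes tested. The median of library 1 minus library 2 was -0.15, against -0.02 over all genes. There is 1 library on each side, so this difference has no replicate check. The libraries were at least 2-fold apart for 3 genes higher in library 1 (2.42%, against 4.41% of all genes tested) and 2 higher in library 2 (1.61%, against 4.57%). At least 1.5-fold apart were 7 genes higher in library 1 (5.65%, against 12.9%) and 13 higher in library 2 (10.5%, against 13.8%). SNRNP200, the helicase that unwinds U4 from U6, had 118 FPKM in library 1 and 40.3 FPKM in library 2, against 103 FPKM in the control. PLRG1, a core protein of the PRP19 complex, had 31.9 FPKM in library 1 and 14.3 FPKM in library 2, against 36.0 FPKM in the control. For both, library 1 stayed near the control and library 2 was less than 0.5 times its level. The reverse held for PPIL1, a prolyl isomerase of the activated spliceosome, with 13.4 FPKM in library 1 and 44.0 FPKM in library 2, against 41.7 FPKM in the control. SF3B5 was above the control in library 1, at 170 FPKM, and below it in library 2, at 89.4 FPKM, with 109 FPKM in the control. WBP11 did the opposite, at 22 and 41.1 FPKM in libraries 1 and 2 and 28.7 FPKM in the control.

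Splicing genes outside the pathway entry went in more than 1 direction. Over all genes tested, 31.7% were above and 37.6% below the control in both libraries. Of 17 factors that assemble and import snRNPs, such as the SMN complex, 11 were above the control in both knockdown libraries and 0 below, with a median log2 fold change of 0.35 (0.32 with quantile normalization). SMN1 was among the 11, at 19.3 and 20.0 FPKM against 12.2 FPKM. SMN2 lay on opposite sides, at 8.43 and 10.2 FPKM against 9.64 FPKM. How reads were shared between SMN1 and SMN2 is not given in the sources used here. GEMIN5, which recognises the small nuclear RNA for the SMN complex, had 28.2 and 35.1 FPKM in the knockdown libraries and 17.2 FPKM in the control. PRMT5, which methylates Sm proteins, had 128 and 168 FPKM against 88.0 FPKM. Of 39 tested splicing regulators, 9 were above and 21 below the control in both libraries, with a median of -0.16 (-0.29 with quantile normalization). RBFOX2 had 20.8 and 17.0 FPKM in the knockdown libraries, against 40.2 FPKM in the control. ESRP1, a regulator of epithelial splicing, had 31.2 and 31.0 FPKM against 64.9 FPKM. RBFOX2 and ESRP1 had log2 fold changes of -1.06 ± 0.40 and -1.04 ± 0.39 (SE), with limma adjusted p of 0.625 and 0.623. Of 9 tested proteins of the minor spliceosome, 3 were above and 3 below in both, with a median of -0.07 (0.10 with quantile normalization). SNRNP48 had 9.62 and 9.06 FPKM in the knockdown libraries and 15.6 FPKM in the control, and RNPC3 had 6.78 and 5.70 FPKM against 10.2 FPKM. The SR protein kinases CLK3 and CLK1 differed, CLK3 at 37.6 and 38.8 FPKM against 25.3 FPKM and CLK1 at 21.6 and 30.0 FPKM against 34.8 FPKM, and the 6 kinases had a median of -0.08 (0.00074 with quantile normalization). No gene of these lists passed limma's adjusted threshold.

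Exons of 20 of the 125 genes overlapped exons of another annotated gene over more than 10% of their length. Among the genes described here were SRSF1 (60.7%), PRPF40B (48.7%), PRPF18 (48.5%), BUD31 (46.7%), SRSF9 (46.2%), PPIH (38.9%), SRSF2 (36.7%) and DDX39B (30.8%). Smaller overlaps were found for U2AF1L4 (30.3%), SNRPB (20.0%), CHERP (19.7%), SF3A2 (12.7%), DHX38 (12.2%) and SNRNP27 (10.4%, with MXD1). At least 1 partner was on the same strand for SRSF1, PRPF18, SRSF2, DDX39B, U2AF1L4, SNRPB, CHERP and SNRNP27. Strand alone cannot part the reads of such a pair. The library kit keeps the strand, but the strand setting of the counting is not given in the sources used here, so reads of the partner gene may be included.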

How the data were processed

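The authors deposited FPKM values for 15625 genes in 1 table. The submitters' processing notes name Trimmomatic, HISAT2 and the build GRCh38.p13. Not given in the sources used here are tool versions, the annotation, and the counter with its strand setting. KEGG pathway names and Entrez numbers, other values, were deposited by the authors with the table. FPKM ratios of the 3 libraries were whole-number ratios in 100% of genes (relative tolerance 1e-12) after 1 depth factor per library, which gives the smallest reads stated; true reads may be larger.

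Genes with mean FPKM of at least 1 were tested on log2(FPKM + 1), which understates changes of low genes, with limma 3.58.1 in R 4.3.3 (mean-variance trend, 10.92 prior degrees of freedom, knockdown against control, Benjamini-Hochberg adjustment, threshold 0.05), checked on simulated data. The spread comes from the knockdown pair, and the single control is taken to have the same. The simulated data drew the control with the same spread as the knockdown libraries, so they could not check this assumption. Medians and counts of lists have no test. Alternatives were pseudocounts of 0.1 and 5, no filter, mean FPKM of at least 5, median-ratio and quantile scaling, no trend, robust fitting, a prior of 5, and each knockdown library left out.

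The genes, the 9 groups by role and the 4 lists outside the entry were chosen with earlier results of these data known. Named genes were the 12 highest and 12 lowest by whichever knockdown library was closer to the control, the member farthest from 0 and the most abundant per group, the 4 opposite-sided genes whose libraries differed most, near-identical pairs, and 2 genes per outside list; some genes are not reported here. Other genes were named after their values were seen, to fill out a complex. RP9 was in no group by role. Coordinates and coding sequences are from GENCODE 29 (GRCh38). Coding sequences were aligned end to end with Biopython 1.88.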

Additional observations from a re-analysis of the deposited data

How the results depend on the processing

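Limma called 0 spliceosome genes under each of the 9 alternative settings of the fit. The median log2 fold change stayed at 0.13 to 0.18 except with quantile normalization, where it was 0.0308 and 42 genes were below the control in both libraries. With a pseudocount of 5, 7 genes were at least 1.5-fold in both libraries, 0 of them lower, and 1 gene was lower at an unadjusted p under 0.05; that count was also 1 without the trend. The members' median minus that of all genes was 0.19, and 0.12 with a mean of at least 5 FPKM or 0.02 with quantile normalization. The causes were not tested. Without 1 knockdown library there is no test, and the median was 0.06 to 0.21. The count of genes above the control was then 70 to 89 and of genes below it 35 to 54. The count at least 1.5-fold away was 24 to 30, with 15 to 24 higher and 6 to 9 lower. No share over all genes tested is given beside these 1-library counts or the 1.5-fold count with a pseudocount of 5. Such counts cannot be read as a trait of the spliceosome genes. Of 39 genes followed through the settings of the fit, WBP11 (-0.0245) changed sign with quantile normalization, and no other did under these settings. With either library left out, WBP11 ran from -0.37 to 0.50, PPIL1 from -1.57 to 0.0742, SF3B5 from -0.29 to 0.63 and SNRNP200 from -1.33 to 0.19. No paired analysis was possible because the control has 1 library and shares no number with both knockdown libraries. Depth limits the rows with few reads, among them U2AF1 with smallest whole reads of 43 to 78, where true reads may be larger. The 1 control library limits every comparison.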

Other observations

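Of the 124 tested spliceosome genes, 81 carried no other pathway entry in the table. In these 81, 44 were above the control in both knockdown libraries and 14 below, with a median log2 fold change of 0.18. Over all genes tested, 31.7% were above and 37.6% below in both, and no test compared the 81 genes with others. The 13 genes that also carry the entry RNA transport had a median of 0.10, with 5 above and 3 below, and ALYREF was the highest of them. The 10 genes shared with the mRNA surveillance pathway had a median of 0.13, with 5 above and 2 below.

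By mean level, the middle of 3 near-equal groups of the spliceosome genes (29.4 to 64.3 FPKM) had 23 of 42 genes above the control in both libraries and 4 below it. In the lowest group (4.07 to 28.0 FPKM) 19 of 41 were above and 12 below, and in the highest (66.0 to 420.2 FPKM) 19 of 41 were above and 10 below. No share of all tested genes at these levels is given. The contrast between the 3 groups therefore cannot be read as a trait of spliceosome genes. RP9, in no group by role, had 8.71 and 10.2 FPKM in the knockdown libraries and 8.24 FPKM in the control.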
